A study of Rattus norvegicus with 15 samples.

Results

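The collagens and extracellular matrix genes typical of mesenchyme were followed through early molar development in the rat. The list held 10 genes, given by their mouse Ensembl identifiers: the fibril collagens Col1a1, Col1a2, Col3a1 and Col5a1, the glycoproteins Fn1, Tnc and Postn, the small leucine-rich proteoglycans Dcn and Lum, and the intermediate filament gene Vim. Of these, 9 had a row among the 14185 genes of the table of estimated counts, and no value is given for Col1a2 (ENSMUSG00000029661). RNA was sequenced from single first molar germs of DA/HanRj rat embryos, 1 tooth per library, in 5 libraries for each of the 3 stages E15, E17 and E18, labelled as days E15.5, E17.5 and E18 of embryonic life. The E18 labels give a wild type genotype, the study's methods call the E15 and E17 germs wild type as well, and no treatment or transgene is named for any stage. The titles carry a code that differs between the stages and is shared within each, and the E18 labels alone name storage in RNAlater, a step the study's methods give for all tooth germs meant for RNA sequencing, so that stage and preparation cannot be told apart. E17 replicates 1 and 2 were the left and right tooth of 1 embryo.

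Fibril collagens are secreted as triple-helical proteins that assemble outside the cell into the fibres that give connective tissue its strength. Fibronectin and the tenascin and periostin glycoproteins connect these fibres with one another and with cell receptors, and the small leucine-rich proteoglycans bind collagen and regulate how fibrils grow. In the tooth germ such genes are best known from the condensed mesenchyme and the surrounding follicle, whereas the epithelium lies on a basement membrane of other collagens and laminins.

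Library totals ranged from 10993502 to 27571541 estimated counts, and the lowest count of a member in any library was 642, so counting error was small beside the spread between teeth. Levels are given as CPM, the count of a gene relative to the scaled library total, with TMM factors over the 15 libraries. These are not corrected for gene length, so a level is compared between teeth and not between genes. The 9 measured genes together took a median of 1.99% of all counts at E15 (1.37% to 2.32%), 3.15% at E17 (2.40% to 3.61%) and 3.46% at E18 (2.86% to 4.04%). The teeth are whole organs, and in such samples fewer cells of a type and less RNA per cell cannot be told apart. E18 replicate 3 stood apart from its stage, as described below for the members. Where a call or a direction of a member or ratio changed without it, both values are given. The other matrix genes and the marker lists were not refitted without it. The titles number 5 embryos at E15 and E18 and 4 at E17, and nothing says whether embryos shared a litter, so p-values measure the spread between these teeth.

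The question was whether matrix genes changed between the bud (E15) and the cap (E17) and in the short interval that followed. From E15 to E17, 6 of the 9 genes were higher (Col1a1, Col3a1, Col5a1, Postn, Dcn and Lum), 1 was lower (Vim) and 2 did not pass the test (Fn1 and Tnc), at an adjusted p under 0.05 in edgeR's quasi-likelihood test with Benjamini-Hochberg adjustment over all genes. Among all 12627 genes tested 18.3% passed in either direction and 11.3% were higher. The median log2 fold change was 0.52 over the 9 genes and -0.01 over all genes. In 5 genes (Col3a1, Col5a1, Postn, Dcn and Lum) every E17 tooth was above every E15 tooth, and in Vim every E17 tooth was below. Such separation in either direction was found in 16.0% of 12894 genes. With all 15 libraries in 1 edgeR fit, which also takes in the E18 teeth, 4 of the 9 genes passed. Postn (edgeR adjusted p = 0.24), Lum (0.0581) and Vim (0.222) did not. Over all genes 1514 of 12894 passed in that fit, beside 2315 of 12627 in the fit of E15 and E17 alone.

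**Figure D1:**
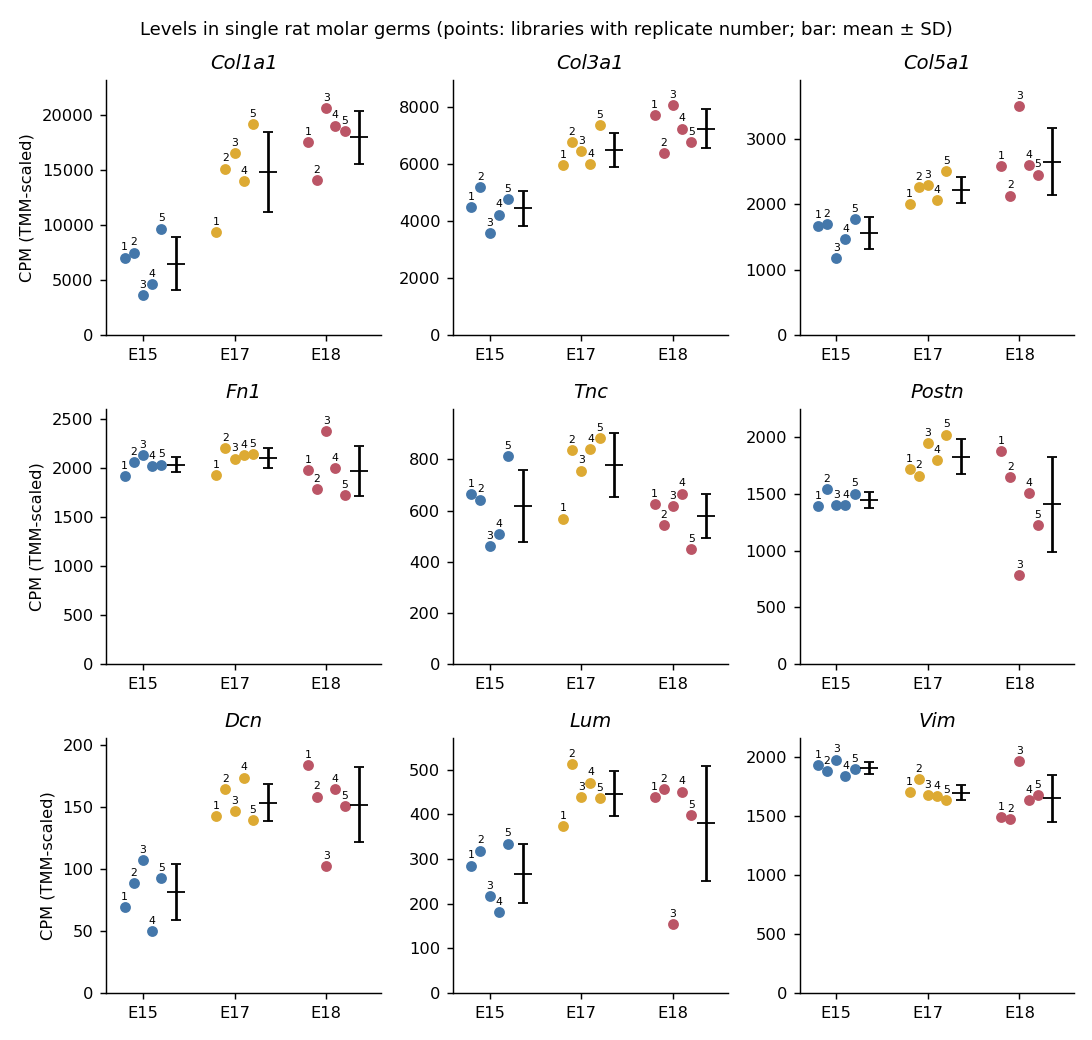
TMM-scaled CPM (linear axis from 0) of the 9 measured genes at E15, E17 and E18. Each point is 1 tooth with its replicate number, and the black bar beside each stage is the mean ± SD of 5 teeth. The fibril collagens climb from E15 to E17, whereas Postn, Dcn and Lum are at their lowest of E18 in replicate 3, where Lum is at 154 CPM.

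Col1a1 (ENSMUSG00000001506) encodes the main chain of type I collagen, the principal fibre of dentine, bone and most connective tissue. Its level was 7059, 7509.7, 3669, 4634 and 9694 CPM in E15 replicates 1 to 5. At E17 it was 9402, 15161, 16548, 13992 and 19203, and at E18 17581, 14092, 20669.6, 19069.9 and 18532 CPM. A single E17 tooth, replicate 1, lay below the highest E15 tooth, and the remaining E17 teeth and all E18 teeth lay above every E15 tooth. The mean was 6513 ± 2399 at E15, 14861 ± 3617 at E17 and 17989 ± 2449.7 CPM at E18 (SD, n = 5). The log2 fold change from E15 to E17 was 1.19 ± 0.24 (SE, edgeR adjusted p = 0.00367), a 2.29-fold rise that exceeded the change of 97.2% of all genes. It passed in all 10 fits that left out 1 tooth, with log2 fold changes of 1.05 to 1.38.

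Col3a1 (ENSMUSG00000026043), the chain of type III collagen found with type I in soft and growing tissue, varied less from tooth to tooth. Its levels were 4492, 5212, 3581, 4234 and 4789 CPM at E15 and 5962, 6783, 6452, 5999 and 7383 at E17. At E18 they were 7735, 6392, 8084, 7258 and 6793 CPM. The E15 teeth lay below all others, and the E17 and E18 ranges overlapped. Col3a1 rose by 0.55 ± 0.09 log2 units from E15 to E17 (SE, edgeR adjusted p = 0.00112).

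Col5a1 (ENSMUSG00000026837), a chain of type V collagen that helps to start type I fibrils and limits their width, followed the same order of stages. It was measured at 1671, 1696, 1171, 1472 and 1775 CPM at E15 and 1994, 2264, 2285, 2066 and 2499 at E17. The E18 teeth had 2578, 2131, 3494, 2597 and 2450.4 CPM. No E15 tooth reached the E17 range, and E18 replicate 3 was the highest tooth of all. Its rise from E15 to E17 was 0.52 ± 0.10 log2 units (SE, edgeR adjusted p = 0.00328).

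Over the whole interval from E15 to E18 the fibril collagens showed their widest differences: Col1a1 rose by 1.47 ± 0.24 log2 units (2.77-fold), Col3a1 by 0.70 ± 0.12 and Col5a1 by 0.77 ± 0.15 (SE, edgeR adjusted p = 0.00121, 0.00148 and 0.00386). In these 3 genes every E18 tooth was above every E15 tooth. Separation of the E18 and E15 teeth in either direction was found in 22.6% of 12894 genes. Of all 12661 genes tested between E15 and E18, 21.0% passed in either direction and 14.2% were higher. The comparison shares its E15 teeth with that of E17 against E15. Between E17 and E18 the 95% intervals of the log2 fold change were -0.11 to 0.66 for Col1a1, -0.05 to 0.36 for Col3a1 and -0.02 to 0.53 for Col5a1.

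**Figure D2:**
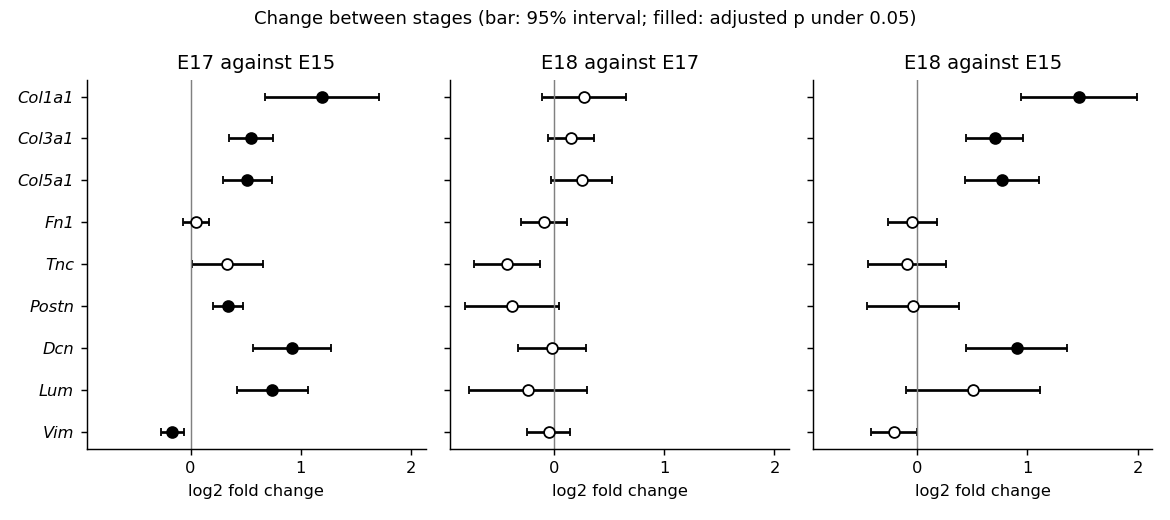
Log2 fold change of the 9 measured genes in the 3 stage comparisons, with 95% intervals from the edgeR fits of 5 against 5 teeth. Filled points passed an adjusted p of 0.05: 7 genes for E17 against E15, 0 for E18 against E17 and 4 for E18 against E15.

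The balance of type III to type I collagen was compared as the ratio of Col3a1 to Col1a1 counts within each library, which does not depend on library size. This ratio averaged 0.743 ± 0.199 at E15 (0.494 to 0.976), 0.457 ± 0.103 at E17 (0.384 to 0.634) and 0.406 ± 0.0382 at E18 (0.367 to 0.454; SD, n = 5). The E15 ratios were widely spread, with E15 replicates 3 and 4 at the top and E15 replicate 5 within the E17 range. The log2 ratio differed by -0.68 between E15 and E17 (two-sided exact permutation test, p = 0.0159, adjusted over 6 tests 0.0476) and by -0.83 between E15 and E18 (exact p = 0.00794, the smallest that 5 against 5 allows, adjusted 0.0476). From E17 to E18 the difference was -0.15 (exact p = 0.397, adjusted 0.397). With both teeth of the shared E17 embryo summed into 1 library, the E15 to E17 difference was -0.75 and no longer passed (exact p = 0.0317, adjusted 0.0952). Both calls also changed when single teeth were left out. Without E15 replicate 1, 2 or 4, or without E17 replicate 2, 3, 4 or 5, the E15 to E17 adjusted p was 0.0952, and the E15 to E18 one was 0.0952 without E15 replicate 1, 2 or 4, where 4 against 5 teeth cannot give an exact p below 0.0159.

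**Figure D3:**
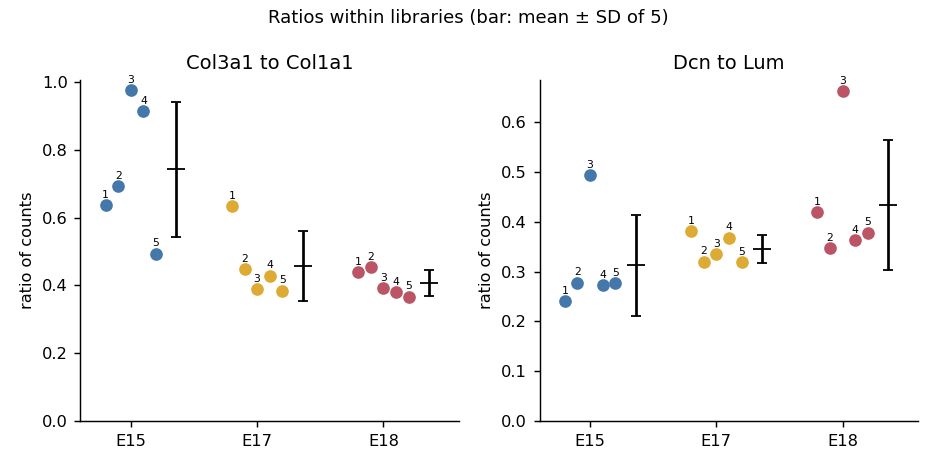
Ratio of counts within each library for Col3a1 to Col1a1 and for Dcn to Lum (linear axes from 0). Each point is 1 tooth with its replicate number and the black bar is the mean ± SD of 5. The Col3a1 to Col1a1 ratio falls from a mean of 0.743 at E15 to 0.406 at E18, and E15 replicate 3 and E18 replicate 3 lie above the other teeth of their stages in Dcn to Lum.

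Among the glycoproteins, Fn1 (ENSMUSG00000026193) encodes fibronectin, an adhesive protein on which other matrix assembles. Its level was 1919, 2066, 2133, 2021 and 2037 CPM at E15 and 1933, 2202, 2098, 2132 and 2148 at E17. At E18 it was 1979.8, 1788, 2382, 2000.2 and 1723 CPM. The ranges of all stages overlapped, and E18 replicate 3 was again the highest. The E15 to E17 log2 fold change was 0.05 ± 0.05 with a 95% interval of -0.06 to 0.16 (edgeR adjusted p = 0.565), so a rise of the size seen in Col3a1 lay outside its interval.

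Tnc (ENSMUSG00000028364) encodes tenascin-C, a modulator of cell adhesion found in condensing mesenchyme and around forming bone and teeth. Levels of 663, 642, 461, 507 and 814 CPM were measured at E15 and of 568, 836, 756, 839 and 882 at E17. The E18 levels were 624, 544, 617, 666 and 449 CPM. E17 teeth other than replicate 1 were high, and E15 replicate 5 reached the same range. The E15 to E17 difference of 0.33 ± 0.15 log2 units did not pass (SE, edgeR adjusted p = 0.14), but did without E15 replicate 5 (0.45, adjusted p = 0.0417) and without both E15 replicate 3 and E17 replicate 1 (0.34, adjusted p = 0.0297). From E17 to E18 the difference was -0.42 ± 0.14 (SE, edgeR adjusted p = 0.158).

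Postn (ENSMUSG00000027750) encodes periostin, a collagen-binding protein of the periosteum and of the periodontal ligament that later holds the tooth. Teeth of E15 had 1395, 1544, 1402, 1399 and 1502 CPM and teeth of E17 had 1718, 1660.2, 1949.9, 1796 and 2023. At E18 the values were 1874, 1649.9, 786, 1505 and 1228 CPM. E15 teeth were close to one another and all below E17, whereas E18 ran from the lowest to near the highest value of the gene. Postn rose by 0.34 ± 0.06 log2 units from E15 to E17 (SE, edgeR adjusted p = 0.00228), and the E15 to E18 difference was -0.04 ± 0.19 (adjusted p = 0.906) with all teeth and 0.12 (adjusted p = 0.444) without E18 replicate 3.

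Dcn (ENSMUSG00000019929) encodes decorin, a small leucine-rich proteoglycan that coats collagen fibrils and binds growth factors. It was at 68.8, 88.5, 107, 49.5 and 92.6 CPM at E15 and 143, 164, 147, 173 and 139 at E17. The E18 teeth had 184, 158, 102, 164 and 150.4 CPM. All E17 teeth exceeded all E15 teeth, and E18 replicate 3 alone fell back among the E15 values. Its E15 to E17 rise of 0.92 ± 0.16 log2 units (1.89-fold, edgeR adjusted p = 0.0017) was followed by a difference of -0.01 ± 0.14 to E18 (0.10 without E18 replicate 3, adjusted p = 0.548), and the E15 to E18 rise was 0.90 ± 0.21 (adjusted p = 0.00939).

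Lum (ENSMUSG00000036446) encodes lumican, a keratan sulphate proteoglycan of the same family that keeps fibrils evenly spaced. E15 teeth showed 285, 319, 216, 182 and 334 CPM and E17 teeth 374, 512, 438, 471 and 436. E18 teeth showed 439, 457, 154, 451 and 398 CPM. Every E17 tooth was above E15, and 4 of the E18 teeth stayed at the E17 level while replicate 3 lay below all the others at any stage. Lum rose by 0.74 ± 0.15 log2 units from E15 to E17 (SE, edgeR adjusted p = 0.00373). From E15 to E18 the difference of 0.51 ± 0.28 did not pass (adjusted p = 0.219) with E18 replicate 3 and did without it (0.71, adjusted p = 0.00473).

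The ratio of Dcn to Lum counts within a library averaged 0.312 ± 0.102 at E15, 0.345 ± 0.0284 at E17 and 0.434 ± 0.131 at E18 (SD, n = 5). No difference between stages passed: the log2 ratio was 0.19 higher at E17 than at E15 (exact permutation p = 0.333, adjusted 0.397) and 0.48 higher at E18 than at E15 (exact p = 0.0873, adjusted 0.131). Without E15 replicate 3, whose ratio was the highest of its stage, these differences were 0.37 and 0.66, each with an exact permutation adjusted p of 0.0317. Without E18 replicate 3, the highest of E18, the E15 to E18 difference was 0.32 (adjusted p = 0.262). From E17 to E18 the log2 ratio was 0.29 higher with all teeth (exact p = 0.0794, adjusted 0.131) and 0.13 higher without E18 replicate 3 (adjusted p = 0.262).

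Vim (ENSMUSG00000026728) encodes vimentin, the intermediate filament protein of mesenchymal cells, and is the only gene of the list whose product stays inside the cell. Its levels were 1937, 1885, 1982, 1842 and 1904 CPM at E15 and 1707, 1814, 1683, 1669 and 1639 at E17. The E18 levels were 1490.3, 1479, 1969, 1641 and 1683 CPM. Vim was the steadiest of the 9 genes at E15 and E17, and all E17 teeth lay below all E15 teeth. The fall from E15 to E17 was small, at -0.16 ± 0.05 log2 units (SE, edgeR adjusted p = 0.0333), and passed in 4 of 10 fits that left out 1 tooth, failing without E15 replicate 1 or 5 or E17 replicate 1, 3, 4 or 5 (adjusted p 0.0518 to 0.087). The E15 to E18 difference was -0.21 ± 0.09 (adjusted p = 0.149) with all teeth and -0.27 (adjusted p = 0.00992) without E18 replicate 3.

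RefSeq promoters on the GRCr8 assembly were found for 6 of the 10 genes by symbol. Those of Tnc and Vim are shown, limited to the bases that lie before the annotated gene. Among the measured genes only these have such bases in the promoter table, and they differ in spread, with Vim the steadiest at E15 and E17 and Tnc among the genes that varied with Col1a1. Both strands were searched for TATAAA, the core of the TATA box. The letters CCAAT, the core of the CAAT box, were searched next. The GC box was searched as GGGCGG. Matches are in capitals, and those of different motifs overlap in neither promoter. The Tnc stretch is chr5:82476198-82476381 on the minus strand (184 bases), and the Vim stretch is chr17:81577011-81577260 on the plus strand (250 bases).
Tnc: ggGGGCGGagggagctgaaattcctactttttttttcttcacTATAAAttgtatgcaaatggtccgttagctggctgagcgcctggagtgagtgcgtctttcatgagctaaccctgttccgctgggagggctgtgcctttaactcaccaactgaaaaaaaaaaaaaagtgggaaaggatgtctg
Vim: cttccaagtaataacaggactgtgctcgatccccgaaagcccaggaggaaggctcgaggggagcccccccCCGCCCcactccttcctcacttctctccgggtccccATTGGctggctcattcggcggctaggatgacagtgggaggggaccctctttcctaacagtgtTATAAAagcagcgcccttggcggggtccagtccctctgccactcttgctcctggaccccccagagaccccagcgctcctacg
The Vim stretch held all 3 motifs, the TATA box at bases 169 to 174, the CAAT box on the reverse strand at bases 107 to 111 and the GC box on the reverse strand at bases 71 to 76, counted from 1 at the 5′ end. The Tnc stretch had the GC box at bases 3 to 8 and the TATA box at bases 43 to 48, and no match to the CAAT box in this window. For comparison, windows of the same lengths were taken at the start of 33469 rat promoters, here not limited to bases before the annotated gene. The first 250 bases held the TATA box in 12.9%, the CAAT box in 34.0% and the GC box in 30.5%. In the first 184 bases the shares were 9.27%, 26.6% and 21.6%. These matches describe the letters only, and binding at them was not measured.

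Between E17 and E18 0 of the 9 genes passed in edgeR, 1 had an unadjusted p under 0.05 (Tnc), and 0 passed in DESeq2. Among all 12718 genes tested in edgeR 2.54% passed (323 genes, and 2021 at an unadjusted p under 0.05). In DESeq2 665 of 13409 genes passed. The E17 and E18 ranges overlapped in every member, and 6.68% of 12894 genes had ranges that did not overlap. The count of genes that passed in edgeR was 713 once E18 replicate 3 was left out and 442 once E18 replicate 1 was. It was 141 to 208 without any single one of the other teeth. With E18 replicates 1 and 3 both left out, a choice made after the data were seen, 1072 of 12874 genes passed, and Tnc (-0.50, adjusted p = 0.0452) and Postn (-0.33, adjusted p = 0.0427) were lower at E18 than at E17.

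E18 replicate 3 divided the list. Of the 5 E18 teeth it had the highest Col1a1, Col3a1, Col5a1, Fn1 and Vim and the lowest Postn, Dcn and Lum, and only Tnc was neither. Its Lum level of 154 CPM compared with 398 to 457 in the other E18 teeth, and its Postn level of 786 with 1228 to 1874. The direction of these departures differed between genes of the same library, and the part of scaling in them was not tested. Dental mesenchyme markers summed to their highest E18 value, 1836 CPM, in the same tooth. Of these markers Pax9, Barx1, Lhx8 and Pdgfra were highest there, Msx1 was not, and Runx2 was at its lowest of E18 (270 CPM). E15 replicate 3 departed in another manner: it had the lowest Col1a1, Col3a1, Col5a1 and Tnc of E15, but the highest Dcn, Fn1 and Vim.

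**Figure D4:**
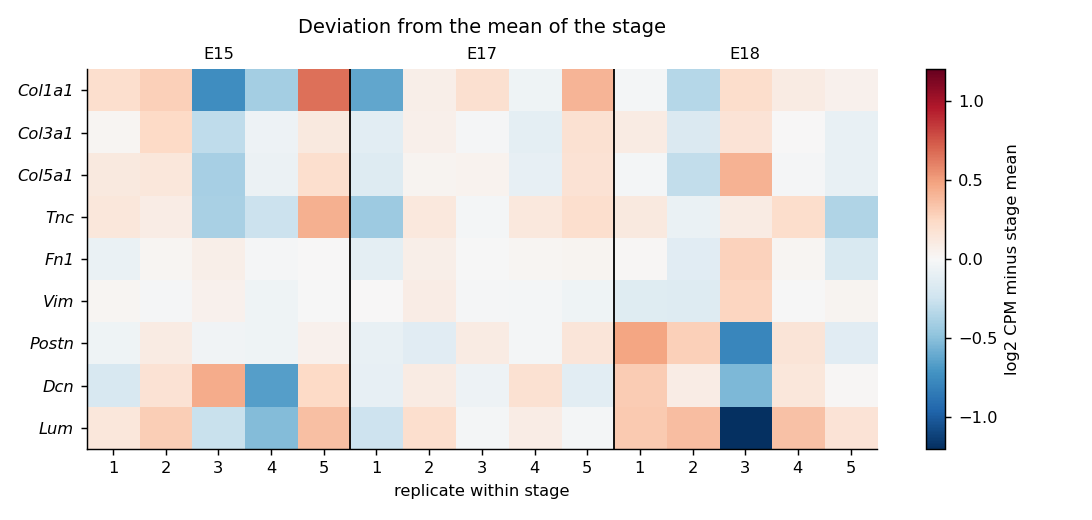
Log2 CPM of each gene in each tooth minus the mean of its stage (colour, red above and blue below), with the 15 teeth in columns by stage and replicate number. The fibril collagens and Tnc share their blue cells in E15 replicate 3 and E17 replicate 1, and Postn, Dcn and Lum share theirs in E18 replicate 3.

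The fibril collagens moved together from tooth to tooth. Over the 15 libraries, after the stage mean was taken from each gene, Pearson's r was 0.82 between Col1a1 and Col3a1 (Spearman's rho 0.86), 0.82 between Col1a1 and Col5a1 (0.94) and 0.89 between Col3a1 and Col5a1 (0.91). Tnc went with Col1a1 at r = 0.83 (rho 0.71). After the 2 libraries farthest from the median in Col1a1, E15 replicate 3 and E17 replicate 1, were left out, r with Col1a1 was 0.71 for Col3a1, 0.73 for Col5a1 and 0.69 for Tnc. Lum and Postn had r = 0.80 (rho 0.55) and Lum and Dcn r = 0.70 (rho 0.525). Without E15 replicate 4 and E18 replicate 3, r became 0.46 and 0.16, so these r values depended on those teeth. Postn and Vim moved in opposite directions (r = -0.93, rho -0.80, and -0.82 without E18 replicates 2 and 3). These values are descriptions over teeth that share library, depth and scaling within each point, and no p is given.

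Markers of hard tissue varied in the same teeth as Col1a1 and Tnc. The bone list had 3 of its 6 genes with a usable symbol and a row: Alpl (tissue-nonspecific alkaline phosphatase), Spp1 (osteopontin) and Dmp1 (a matrix protein of dentine and bone). Their summed level was 82.9 to 329 CPM at E15, 111 to 343 at E17 and 186 to 304 at E18, and most of it was Alpl. E15 replicates 3 and 4 and E17 replicate 1 had the least, and E15 replicate 5 and E17 replicate 5 the most of their stages, as in Col1a1. Within stages its r over 15 libraries was 0.87 with Col1a1 (rho 0.85) and 0.85 with Tnc (rho 0.91), and these were 0.87 and 0.83 without E15 replicate 4 and E17 replicate 1. For Col3a1 it was 0.57, for Col5a1 0.59, for Lum 0.35 and for Postn 0.00. Dmp1 was counted in every library. Their part in the spread of Col1a1 and Tnc was not tested.

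**Figure D5:**
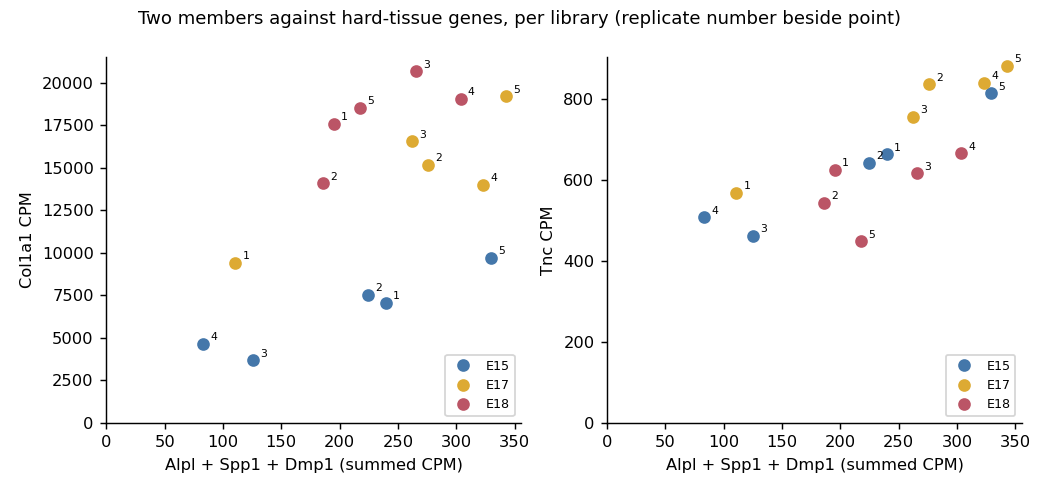
Col1a1 and Tnc levels (CPM) against the summed CPM of Alpl, Spp1 and Dmp1, 1 point per tooth with its replicate number, coloured by stage, on linear axes from 0. At E15 and E17 both genes are lowest in the teeth with the least of the hard-tissue genes, and at a like hard-tissue level Col1a1 is higher in E17 and E18 teeth than in E15 teeth.

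The left and right tooth of the E17 embryo sampled on both sides differed most in Col1a1, Tnc and Lum. Right over left was 1.61 for Col1a1 (9402 CPM left and 15161 right), 1.47 for Tnc and 1.37 for Lum. The Col1a1 difference was larger than that of 92.3% of all genes in this pair. Of the 9 other pairs of E17 teeth, 7 were closer in Col1a1 and 7 in Tnc, and all 9 were closer in Lum and in Fn1. Col3a1 (1.14), Col5a1 (1.14), Fn1 (1.14), Dcn (1.15), Vim (1.06) and Postn (0.967) differed less.

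The spread within a stage set these genes apart from one another. The SD of log2 CPM of Col1a1 was 0.56 at E15, 0.39 at E17 and 0.21 at E18, above that of 88.7%, 87.2% and 33.7% of all genes. Fn1 and Vim stood at the other end at E15, with an SD above that of 2.98% and 0.923% of genes. Lum had an SD of 0.38 at E15, 0.17 at E17 and 0.67 at E18, the last from replicate 3. Over all genes the median SD was 0.20 at E15, 0.14 at E17 and 0.27 at E18.

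As for the cells that could carry these transcripts, 6 of 8 dental mesenchyme markers and 10 of 14 epithelial markers had a usable symbol and a row, and none was at 0 in every library. The mesenchyme markers summed to 2389 to 2645 CPM at E15, 1869 to 2020 at E17 and 1566 to 1836 at E18, and 3 of 6 were lower at E17 than at E15 and 0 higher. The epithelial markers summed to 459 to 645, 948 to 1096 and 1246 to 1662 CPM, and all 10 were higher at E17 than at E15. Among all genes tested between these stages 7.02% were lower and 11.3% higher. The collagens rose while the summed mesenchyme markers ran lower, and the deviations of the mesenchyme sum within stages had r = 0.16 with Col1a1, 0.53 with Col5a1, -0.60 with Postn, -0.73 with Dcn and -0.72 with Lum. Without E18 replicates 2 and 3 these were -0.06, 0.08, -0.09, -0.71 and -0.47. With Col3a1 the mesenchyme sum had r = 0.26, and -0.08 without those teeth. Deviations of the epithelial sum had r = -0.16 with Col1a1, -0.58 with Col3a1 and -0.36 with Col5a1. For Postn, Dcn and Lum it was -0.18, 0.32 and 0.07. Without E15 replicate 4 and E18 replicate 1 the epithelial values were, in the same order, -0.51, -0.83, -0.63, 0.09, 0.28 and -0.0034. The part of these markers in the changes of the members was not tested. Markers of endothelium, blood, muscle, cartilage, glia and white blood cells could not be read, since no symbol of theirs was paired with an identifier.

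Genes with a pattern like that of a member were sought among 346 genes with a symbol, by Pearson's r of log2 CPM over the 15 libraries, stages included. Col1a1 was most like Cspg4 (0.95), Cdkn1a (0.94) and Mmp14 (0.94). Col3a1 and Col5a1 were both most like Aqp1 (0.96 and 0.97). Next came Fam20c (0.95) and Cspg4 (0.94) for Col3a1, and Tcirg1 (0.96) and Cspg4 (0.96) for Col5a1. Cspg4 encodes a membrane proteoglycan of pericytes and Mmp14 a membrane-bound collagenase. For Tnc the nearest were Slc13a5 (0.87), Bmp8a (0.83) and Dmp1 (0.77). For Dcn they were Lama2 (0.94), Aqp4 (0.91) and Sostdc1 (0.90). Both Postn and Lum had the mesenchymal growth factor gene Fgf7 among their nearest (0.85 and 0.87), Postn with Adam17 (0.89) and Rock1 (0.81) and Lum with Jak1 (0.88) and Fgf10 (0.80). Fn1 had Boc (0.79), Map2k2 (0.64) and Mtor (0.55), and Vim had Maml1 (0.91), Lhx6 (0.87) and Porcn (0.81).

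Of 100 other matrix genes listed by family, 21 had a usable symbol and a row, and the symbols came from the genes the study had listed for its own categories. Between E15 and E17 14 of the 21 were higher and 1 lower, with a median log2 fold change of 0.40, beside 11.3% higher, 7.02% lower and a median of -0.01 among all genes tested. All 4 basement membrane genes rose, among them the laminin chains Lama3 (1.28 ± 0.12, SE, edgeR adjusted p = 1.3e-05) and Lama2 (0.53 ± 0.07, adjusted p = 0.000169). All 5 remodelling genes rose, which are 3 metalloproteinases (Mmp9, Mmp13 and Mmp14) and 2 of their tissue inhibitors (Timp1 and Timp2), led by the collagenase Mmp13 (4.75 ± 0.87, adjusted p = 0.00206) and the gelatinase Mmp9 (3.55 ± 0.48, adjusted p = 0.000232). Mmp13 stood at 0.0772 to 0.527 CPM at E15 and 1.72 to 30.6 at E17, so its fold rests on few counts at E15.

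Of 7 matrix glycoproteins 3 rose, with Spp1 (3.61 ± 0.87, edgeR adjusted p = 0.011) and reelin, Reln (0.70 ± 0.21, adjusted p = 0.0322), ahead. Spp1, also in the bone list, was at 0.0 to 3.11 CPM at E15 and 1.80 to 49.4 at E17. For Spp1, E17 replicate 1 lay within the E15 range and E17 replicate 4 was the highest tooth. The same replicate 4 was the highest E17 tooth in Mmp13 (30.6 CPM) and Mmp9 (47.5 CPM). The receptor family had 2 of 5 genes higher, with the heparan sulphate proteoglycan Sdc4 at 0.78 ± 0.09 (edgeR adjusted p = 8.71e-05), and 1 lower, the glypican Gpc2 at -0.37 ± 0.08 (adjusted p = 0.00662). From E17 to E18 3 of the 21 passed (2.54% of all genes did), all higher, and were named after their values were seen: Col4a1 (0.45), Sdc1 (0.38) and Sdc4 (0.41). E18 replicate 3 was the highest E18 tooth in Col4a1 (2080 CPM) and Sdc1 (433 CPM), but not in Sdc4. These calls were not tested without it. From E15 to E18 14 were higher and 0 lower, beside 14.2% and 6.73% of all genes.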

How the data were processed

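Single rat molar germs were sequenced at E15, E17 and E18. The deposited table used for the members holds estimated counts that the authors obtained with Salmon (0.99.0 in the E18 processing notes, build Rnor_6.0) and wrote as whole numbers under mouse Ensembl identifiers; the study's methods name one-to-one Ensembl orthologs for carrying gene categories to rat, and whether this table used them was not given in the sources used here. A second deposited table holds HTSeq counts, which the authors made from STAR alignments of E15 and E17. Its rat identifiers could not be joined to symbols, so it gave no value for the members. In the edgeR test of E17 against E15, 2749 of its 14300 genes tested passed. Both tables are neither normalized nor length corrected.

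Stages were compared with edgeR 4.0.16 in R 4.3.3 (TMM, filterByExpr, quasi-likelihood F test, Benjamini-Hochberg over all genes, threshold 0.05), with only the libraries of both stages in a fit. SEs were derived from the F statistic. Within-library ratios were compared with two-sided exact permutation tests (scipy 1.17.1). Of 9 ratio tests planned, 3 needed Col1a2, so p-values were adjusted over 6. The code was tested on simulated data. DESeq2 1.42.0, other scaling and filters, and left-out libraries were alternatives. Symbols other than those of the members came from a list in the study's supplement (399 pairs, 356 of them in the table). All members were named. Of the matrix families, up to 2 genes with the largest E15 to E17 change among those that passed were named, and the 3 genes most like each member. Members and lists were chosen with earlier results of these data known, and the left-out pairs of teeth after the data were seen. Promoters came from RefSeq (GRCr8).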

Additional observations from a re-analysis of the deposited data

Results flagged for a closer look

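In groups of 5 teeth, 4 of 33 sets of values had a tooth whose gap to the nearest of the others was wide beside the whole range (Dixon's test at 95%), and chance alone gives about 1 in 20. Lum was at 154 CPM in E18 replicate 3 and at 398 to 457 in the other E18 teeth. The ratio of Dcn to Lum counts was 0.662 in the same tooth and 0.346 to 0.419 in the others. In E15 replicate 3 the Dcn to Lum ratio was 0.493, against 0.241 to 0.278 in the other E15 teeth. The ratio of Col3a1 to Col1a1 counts was 0.634 in E17 replicate 1 and 0.384 to 0.447 in the other E17 teeth.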

How the results depend on the processing

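No paired analysis was possible because replicate numbers follow accession order and the teeth of different stages come from different embryos. Of 477 recomputed values of single members, 451 kept direction and side of the threshold, 9 no longer passed, 8 newly passed and 9 changed sign, none of which passed either way. With 1 library left out, the values that changed sign ranged for Dcn from E17 to E18 from -0.094 to 0.096, and from E15 to E18 for Tnc from -0.17 to 0.029, for Postn from -0.16 to 0.12 and for Fn1 from -0.11 to 0.0063. Without E18 replicates 1 and 3, Dcn from E17 to E18 was 0.035 and Postn from E15 to E18 0.014. For E17 against E15, 1 fit of all 15 libraries gave 1514 genes (2315 in the fit of both stages) and 4 members. For E18 against E17 (323 genes), DESeq2 gave 665 genes, summing both teeth of the shared E17 embryo 212, leaving out 1 library 141 to 713, and leaving out E18 replicates 1 and 3, chosen after seeing the data, 1072 genes and 2 members. With 1 library left out, the log2 difference in Col3a1 to Col1a1 ranged from -0.82 to -0.57 between E15 and E17, passing in 3 of 10 tests, and from -0.97 to -0.72 between E15 and E18, passing in 7 of 10. With both teeth of the shared embryo summed, the first was -0.75 (exact permutation p = 0.0317, adjusted 0.0952). For Dcn to Lum the ranges were 0.11 to 0.37 and 0.32 to 0.66, passing only without E15 replicate 3. The cause of these shifts was not tested. No member fell below 642 counts in a library, so depth limits these genes little, whereas Mmp13, Mmp9 and Spp1 had few counts at E15.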
